A study of Mus musculus with 6 samples.

Results

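The genes examined here encode enzymes that make reactive oxygen species and enzymes that remove them. The list holds 10 genes of the 52636 in the count table: the NADPH oxidases Nox1 and Nox4, the phagocyte oxidase subunits Cybb and Cyba, the dual oxidases Duox1 and Duox2, the superoxide dismutases Sod1, Sod2 and Sod3, and the catalase gene Cat. Each was found by its Ensembl identifier. The list was drawn up with the difference between the groups already known, so that difference is given for its members as a description, without p-values.

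RNA was sequenced from whole thoracic aortas of mice 12 weeks of age, in 4 libraries from WT mice and 2 from Tgfbr1/2iSMCKO (KO) mice. The WT mice were C57BL/6J and untreated. The KO mice carried floxed Tgfbr1 and Tgfbr2 alleles, Myh11-CreERT2 and the mT/mG reporter, and received 5 daily i.p. doses of 2 mg tamoxifen, the first at 11 weeks. Cre is driven by the smooth muscle myosin promoter, so the floxed genes are deleted in smooth muscle cells (SMCs), while other cells of the wall keep both receptors. The comparison asks what loss of TGF-β signaling in SMCs does to transcripts of the wall within days. Genotype at these loci, tamoxifen and receptor loss differ between the groups together and cannot be told apart.

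NADPH oxidases pass electrons from NADPH through a membrane-bound catalytic subunit to oxygen and so form superoxide or hydrogen peroxide. Most need the small membrane subunit encoded by Cyba, and some need cytosolic organizer and activator subunits as well. Dual oxidases form hydrogen peroxide and need maturation factors to leave the endoplasmic reticulum. Superoxide dismutases turn superoxide into hydrogen peroxide, in the cytosol for Sod1, in mitochondria for Sod2 and outside the cell for Sod3, and catalase breaks hydrogen peroxide down in peroxisomes. In the vessel wall Nox4 is the oxidase best known as a gene that TGF-β induces, and Sod3 is the main dismutase of the arterial extracellular matrix.

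Depth ran from 19650983 to 28860598 estimated counts per library. Whole-gene normalized counts of the targeted genes do not check the KO label, because exons outside the deleted parts and cells without Cre still add counts. Tgfbr1 ran from 3858 to 5420 in WT and was 5780 and 4568 in KO, and Tgfbr2 ran from 5327 to 7042 in WT and was 5784 and 5937 in KO. The defining SMC marker Myh11 was present in all 6 libraries (232343 to 359715). KO-1 and KO-2 stood apart from each other in markers of neighboring tissues. Summed cardiac muscle markers were at a level of 1523 in KO-1, 74.0 in KO-2 and 23.0 to 67.8 in WT, and summed brown adipocyte markers at 166.8 in KO-1, 1368 in KO-2 and 59.6 to 82.7 in WT. A level is the count per kilobase of annotated exon, scaled to sum to 1000000 in a library. KO-2 also had 11.7% of its counts in mitochondrial transcripts, against 2.62% to 4.44% in the other libraries. Results that rest on one KO library are therefore given for each.

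The main pattern among the oxidases was less Nox4 and more Cybb in the KO aortas. Across all genes tested, 5.64% (3.54% higher and 2.1% lower in KO) passed both thresholds, an adjusted p below 0.05 and more than 2-fold. Nox4, Cybb and Duox2 were the 3 of 9 tested members past both thresholds, from which nothing is read because the list was chosen on this contrast. The adjusted p-value alone was passed by 10.4% of all genes (5.71% higher, 4.69% lower) and by 5 members, the other 2 being Sod3 and Cat. By normalized counts, both KO libraries lay on the same side outside the WT range in 34.3% of all genes (17.9% higher, 16.4% lower) and in 5 members. These were Nox4 and Sod3 (lower) and Cybb, Duox2 and Sod2 (higher).

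Nox4 (ENSMUSG00000030562.17, chr7:87246096-87398710, plus strand, GRCm38) encodes the constitutively active oxidase of vascular SMCs. The WT libraries held 10237, 9182, 14314 and 12199.9 normalized counts (WT-1 to WT-4), and KO-1 held 4571 and KO-2 3998. Every WT library was above both KO libraries, and by these counts the KO libraries lay close together. The KO mean (4285 ± 404.8, SD, n = 2) was 0.373 of the WT mean (11483 ± 2264, SD, n = 4), and the log2 fold change was -1.42 (SE 0.21). The log2 difference from the WT mean was -1.33 in KO-1 and -1.52 in KO-2. By level per exon length it was -1.10 in KO-1 and -1.71 in KO-2, further apart. Smooth muscle markers summed to a level of 41486 to 51296 in WT, 44559 in KO-1 and 39656 in KO-2. On that scale KO-1 lay inside the WT range and KO-2 just below it. By normalized counts Acta2, the most abundant of them, was 328092 in KO-1, below the WT range of 372417 to 445616. In KO-2 Acta2 was 381467, inside that range. None of the 7 was at 0 in any group, and 0 of 7 passed after adjustment in DESeq2, with 4 at an unadjusted p under 0.05. These 4 did not move together. Both KO libraries were below WT for Tagln, Cnn1 and Smtn (log2 fold change -0.41, -0.38 and -0.30) and above WT for Myh11 (0.36). Per unit of that summed level, Nox4 was at 0.48 of the WT mean in KO-1 and 0.36 in KO-2, with WT libraries from 0.81 to 1.15. In whole tissue, fewer cells of a type and less RNA per cell cannot be told apart.

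Cybb (ENSMUSG00000015340.10, chrX:9435252-9487771, minus strand) encodes the catalytic subunit of the phagocyte oxidase, which macrophages and neutrophils use in their oxidative burst. It had 324.0, 241.6, 314.6 and 292.4 normalized counts in the WT libraries, and 642.7 and 698.2 in KO-1 and KO-2. The groups did not overlap, and by these counts the KO libraries lay close together. The WT mean of 293.1 ± 36.8 (SD, n = 4) compared with 670.4 ± 39.2 in KO (SD, n = 2), and the log2 fold change was 1.19 (SE 0.22). Macrophage markers moved with it. All 6 (Cd68, Adgre1, Csf1r, Mrc1, Fcgr1 and C1qa) rose by the DESeq2 adjusted p-value, none was at 0, and their summed level was 250.4 to 279.5 in WT, 554.1 in KO-1 and 449.8 in KO-2. Per unit of that summed level, Cybb was at 1.22 of the WT mean in KO-1 and 1.23 in KO-2, with WT libraries from 0.83 to 1.14. C1qa weighs most in that sum, with a mean level of 171.2 of 264.0 in WT. The KO mean over the WT mean of normalized counts was 1.75 for C1qa, 1.52 for Csf1r and 2.07 for Fcgr1. It was 2.20 for Adgre1, 2.31 for Cd68 and 2.66 for Mrc1, and Cybb, at 2.29, lay within the range of these markers. Neutrophil markers were near the limit of detection. Of their 6 genes 2 passed, Mpo was at 0 in every library, and the summed level was 0.945 to 10.03 in WT, 25.6 in KO-1 and 33.7 in KO-2. What share of the Cybb difference goes with the number of phagocytes was not tested.

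**Figure D1:**
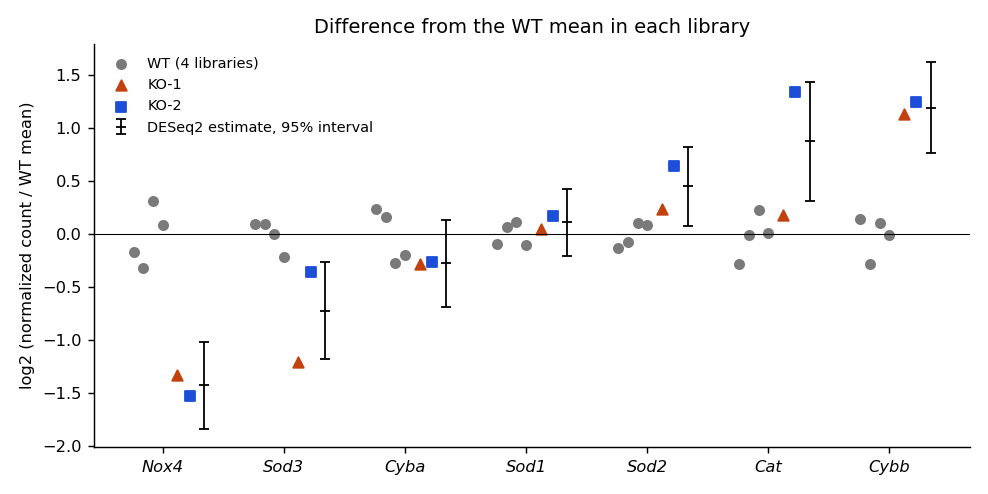
Each point is 1 library, as the log2 of its normalized count over the WT mean, for the 7 members with a mean normalized count of at least 100; gray circles are the 4 WT libraries, the triangle KO-1 and the square KO-2, and black bars are the DESeq2 estimate with its 95% interval. On this scale Nox4 (-1.33 and -1.52) and Cybb (1.13 and 1.25) were alike in both KO libraries, while Sod3 (-1.21 and -0.35) and Cat (0.18 and 1.34) differed between them. By level per exon length all 4 differed between them: Nox4 (-1.10 and -1.71), Cybb (1.37 and 1.07), Sod3 (-0.98 and -0.54) and Cat (0.40 and 1.15).

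Cyba (ENSMUSG00000006519.11, chr8:122424776-122432930, minus strand) encodes the small membrane subunit that stabilizes the products of Nox4 and Cybb. It had 1366, 1298, 963.7 and 1015 normalized counts in WT, and 953.8 and 967.4 in KO. The KO libraries lay at the lower end of WT and the groups overlapped. Its log2 fold change was -0.27 with a 95% interval from -0.68 to 0.14. On the per-length scale, the ratio of Nox4 to Cyba was 0.87 to 1.82 in the WT libraries, 0.59 in KO-1 and 0.51 in KO-2. By principal transcript it was 1.40 to 2.94 in WT, 0.95 in KO-1 and 0.82 in KO-2, so both KO libraries were below every WT library by either length.

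Nox1 (ENSMUSG00000031257.14, chrX:134086421-134221956, minus strand), which encodes an oxidase studied in cultured and injured SMCs, was listed at 0 in all 6 libraries. A count of 0 allows up to 3 counts in a library. Its activator gene Noxa1 and the inner ear oxidase gene Nox3 were also listed at 0 throughout, so no difference was detectable for these genes at this depth.

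The dual oxidases were at the edge of detection. Duox2 (ENSMUSG00000068452.7, chr2:122279247-122298449, minus strand) had 0 counts in each WT library, 41 counts in KO-1 and 26 in KO-2. After scaling these were 31.1 and 32.0 normalized counts, at least 10.4-fold higher than in WT, taking the floor of 3 counts per WT library. Every marker list other than smooth muscle summed higher in both KO libraries than in any WT library, so a rise beside Duox2 is not particular to lining cells. Mesothelial markers were at 3.24 times the WT mean in KO-1 and 6.31 times in KO-2, with 5 of 5 past the DESeq2 adjusted p-value. Endothelial markers were at 1.86 and 1.47 times, with 3 of 6 past it. Neutrophil markers (6.55 and 8.62 times) and red blood cell markers (4.88 and 20.7 times) stood higher still. The part of any of these cells in the Duox2 counts was not tested. Its maturation factor Duoxa2, which lies head to head with it, likewise had 0 counts in each WT library, 7 in KO-1 and 3 in KO-2, too few for an adjusted p-value. Duox1 (ENSMUSG00000033268.8, chr2:122315672-122347972, plus strand) had 0, 0, 5 and 13 counts in WT and 11 and 17 in KO, and the groups overlapped. Its partner Duoxa1 had 15, 9, 3 and 11 counts in WT and 0 and 5 in KO. The reads of Duoxa1 and Duoxa2 can be confused where the genes overlap on opposite strands, as the counting is not stated to use strand.

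The annotated starts of Duox2 and Duoxa2 are 450 bases apart, and the window before Duoxa2 lies wholly between them. That window is shown because both genes were detected in the KO libraries alone, and the windows of Nox4 and Cybb because these 2 genes carried the largest differences among well-detected members. Each is the 250 bases before the RefSeq start (GRCm38.p6), 5′ to 3′ on the strand of the gene. RefSeq windows matched 9 of the 10 members. Those of Nox4 and Cybb lie inside the gene positions given above, downstream of the outermost annotated start. Capitals mark matches, on either strand, to CAGACA (a Smad motif), TGANTCA (the AP-1 site), TGACNNNGC (the core of the antioxidant response element), TATAAA or CCAAT, and no matches shown overlap.
Duoxa2, chr2:122298650-122298899, plus strand: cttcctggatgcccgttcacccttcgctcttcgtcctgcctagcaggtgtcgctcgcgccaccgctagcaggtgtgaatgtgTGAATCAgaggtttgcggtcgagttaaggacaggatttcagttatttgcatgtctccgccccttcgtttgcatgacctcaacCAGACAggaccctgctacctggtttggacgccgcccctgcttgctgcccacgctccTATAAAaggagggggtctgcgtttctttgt
Nox4, chr7:87246399-87246648, plus strand: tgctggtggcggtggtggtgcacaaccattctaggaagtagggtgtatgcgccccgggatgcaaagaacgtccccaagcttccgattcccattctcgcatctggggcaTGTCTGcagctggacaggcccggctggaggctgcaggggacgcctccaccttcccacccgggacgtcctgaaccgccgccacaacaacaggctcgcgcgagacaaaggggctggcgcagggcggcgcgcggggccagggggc
Cybb, chrX:9469325-9469574, minus strand: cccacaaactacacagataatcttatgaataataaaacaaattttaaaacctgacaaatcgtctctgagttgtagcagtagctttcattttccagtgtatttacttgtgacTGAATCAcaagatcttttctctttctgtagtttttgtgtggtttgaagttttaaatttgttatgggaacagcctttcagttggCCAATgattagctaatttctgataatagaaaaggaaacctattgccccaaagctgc

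In the Nox4 window CAGACA was found once, on the opposite strand and 142 bases before the start. CAGACA was held by 17.1% of 32851 such windows, and among the 9 members by those of Nox4 and Duox2, the latter not shown. The Duoxa2 window held that same Smad motif, the AP-1 site (6.75% of windows) and TATAAA (12.4%), the last 30 bases before the start. The Cybb window held the AP-1 site and CCAAT (33.8%). TGACNNNGC, held by 10.2% of windows, was found in 1 of the 9 members, Sod1. The Cat window held CCAAT 4 times. These matches describe letters and are not binding sites.

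The superoxide dismutases were led by Sod3 in WT aortas, and Sod3 was the dismutase lower in KO. Sod3 (ENSMUSG00000072941.5, chr5:52363791-52371418, plus strand), which encodes the secreted copper and zinc enzyme, held 42763, 42888, 40192 and 34562 normalized counts in the WT libraries, 17354 in KO-1 and 31357 in KO-2. Both KO libraries were below every WT library, with KO-2 close to WT-4. By level per exon length the log2 difference from the WT mean was -0.98 in KO-1 and -0.54 in KO-2. By normalized counts the log2 fold change was -0.72 (SE 0.23), and the library values were -1.21 in KO-1 and -0.35 in KO-2. It was -1.20 when fitted without KO-2 and -0.35 without KO-1, and Sod3 no longer passed the adjusted p-value without KO-1, WT-1, WT-2 or WT-3. Fibroblast markers summed to a level of 2721 to 3098 in WT, 4255 in KO-1 and 3640 in KO-2. Of these markers, 2 of 6 genes (Dpt and Lum) were past the DESeq2 adjusted p-value. Per unit of the fibroblast sum, Sod3 was at 0.35 of the WT mean in KO-1 and 0.55 in KO-2 (WT 0.89 to 1.04). Per unit of the smooth muscle sum it was at 0.52 and 0.80 (WT 0.91 to 1.08).

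Sod1 (ENSMUSG00000022982.9, chr16:90220754-90226329, plus strand), the cytosolic copper and zinc enzyme, had 3322, 3712, 3852 and 3312 normalized counts in WT and 3680.1 and 3994 in KO. The groups overlapped and the log2 fold change was 0.11, with a 95% interval from -0.20 to 0.43. Sod1 overlaps Scaf4 on the opposite strand, so part of its count is uncertain. Sod2 (ENSMUSG00000006818.4, chr17:13006846-13040063, plus strand), the mitochondrial manganese enzyme, had 1262, 1311, 1479 and 1459.7 normalized counts in WT and 1626 and 2147 in KO. Both KO libraries were above WT, with KO-2 the higher. The log2 fold change of Sod2 was 0.45 with a 95% interval from 0.08 to 0.82. That interval is not adjusted for the number of genes, and Sod2 did not pass the adjusted p-value over both KO libraries. The log2 fold change was 0.25 without KO-2 and 0.64 without KO-1. Per unit of the summed macrophage marker level, Sod2 was at 0.66 of the WT mean in KO-1 and 0.80 in KO-2. WT libraries ran from 0.85 to 1.14. That ratio fell because the markers rose more than Sod2 did, and it does not give Sod2 per cell.

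Cat (ENSMUSG00000027187.10, chr2:103453849-103485160, minus strand) was highest in KO-2. It had 1633, 1977, 2329 and 1999 normalized counts in WT, 2248 in KO-1 and 5035 in KO-2. On this scale KO-1 lay within the WT range and KO-2 was far above every WT library. Per exon length KO-1 was above WT, at a level of 142.2 against 80.5 to 126.9. By principal transcript KO-1 was at 100.6, against 59.3 to 91.1 in WT. The log2 fold change was 0.87 (SE 0.28) over both KO libraries, 0.19 without KO-2 and 1.34 without KO-1, and Cat no longer passed without KO-2, WT-1, WT-2 or WT-4. Adipocyte markers were also highest in KO-2. The summed brown adipocyte level of KO-2 was 18.4 times the WT mean and that of white adipocytes 9.34 times, against 2.25 and 1.44 times in KO-1. Of these markers, 3 of 5 brown and 2 of 5 white passed the DESeq2 adjusted p-value, none was at 0 in all WT libraries, and red blood cell markers summed to 160.3 to 990.3 in WT, 2324 in KO-1 and 9887 in KO-2, with 4 of 5 past the adjusted p-value. The part of either tissue in the Cat value was not tested.

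**Figure D2:**
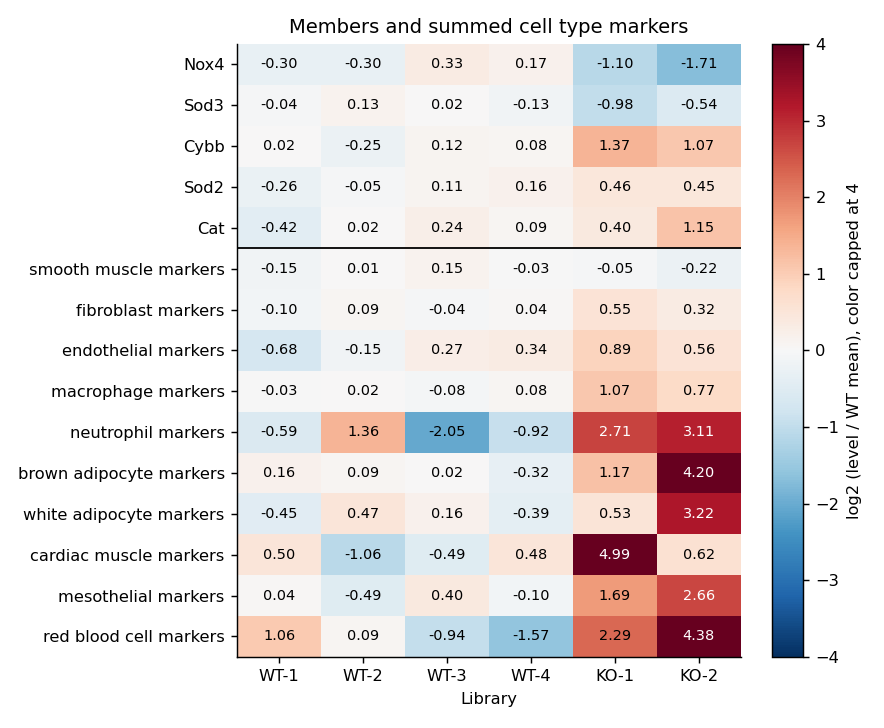
Each cell gives the log2 of a library's level over the WT mean, for 5 members above the line and for the summed level of each cell type's markers below it, with color capped at 4. Cybb (1.37 and 1.07) and macrophage markers (1.07 and 0.77) were higher in both KO libraries, smooth muscle markers were at -0.05 and -0.22, and Cat (0.40 and 1.15) was highest in KO-2, where brown adipocyte markers stood at 4.205.

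Levels per exon length, which allow genes to be compared with each other, placed Sod3 far above the rest in WT aortas (1509 ± 113.3, SD, n = 4). Nox4 (191.9 ± 42.9), Cyba (156.8 ± 21.7), Sod1 (126.3 ± 13.6) and Cat (107.7 ± 19.6) followed, each with a range that overlapped that of its neighbor in the order. Sod2 (19.5 ± 2.50) and Cybb (7.10 ± 0.772) came next, with ranges apart from their neighbors, and Duox1 was at 0.130 ± 0.182. The order depended on the length used for Sod1, whose annotated exons (3970 bases) are mostly absent from its principal transcript (641 bases). With principal transcript lengths, Sod1 was at 564.4 ± 54.7 and stood after Sod3 (1090 ± 77.6), and Nox4 was at 312.5 ± 68.0. In KO, by all annotated exons, Cat (142.2 and 239.0), Sod1 (153.3 and 124.8) and Cyba (151.8 and 115.5) were above Nox4 (89.2 and 58.6), whereas Nox4 had been above Cat in every WT library. With principal transcript lengths Nox4 (142.4) stayed above Cat (100.6) in KO-1 and was below it in KO-2 (100.1 and 181.1). By that length Sod1 (671.2) was also above Sod3 (542.8) in KO-1, and below it in the other 5 libraries.

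**Figure D3:**
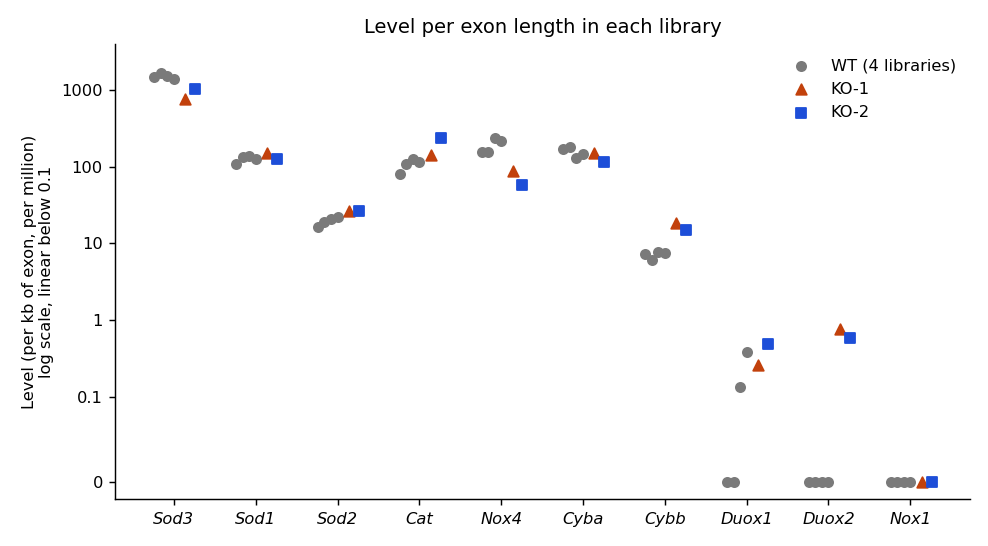
Each point is 1 library and the vertical axis is the level per kilobase of exon and scaled to a library sum of 1000000, on a log scale that is linear below 0.1. By all annotated exons Sod3 was highest in all 6 libraries (by principal transcript Sod1 was above it in KO-1), Nox4 was at 155.5 to 240.5 in WT and at 89.2 and 58.6 in KO, Duox2 was at 0 in the 4 WT libraries and Nox1 at 0 in all 6.

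The make-up of both enzyme groups differed between WT and KO libraries. Among the catalytic oxidase subunits, Nox4 took 95.6% to 96.8% of the summed level in WT, 82.2% in KO-1 and 78.5% in KO-2, and Cybb 3.10% to 4.41%, 16.9% and 20.004%. With principal transcript lengths the share of Cybb was smaller, at 1.71% to 2.44% in WT, 9.94% in KO-1 and 12.02% in KO-2. Nox4 remained the most abundant catalytic subunit in every library, with 21.7 to 31.2 times the level of Cybb in WT, 4.88 times in KO-1 and 3.93 times in KO-2. By principal transcript these ratios were 40.003 to 57.6 in WT, 9.01 in KO-1 and 7.25 in KO-2. Among the dismutases, Sod3 took 90.4% to 92.2% of the summed level in WT, 81.0% in KO-1 and 87.3% in KO-2. With principal transcript lengths its share was 63.1% to 67.9% in WT, 43.5% in KO-1 and 56.0% in KO-2, so it was lower in both KO libraries by either length. The summed dismutase level was 1529 to 1806 in WT, 947.8 in KO-1 and 1192 in KO-2. By principal transcript it was 1575 to 1803 in WT, 1246 in KO-1 and 1408 in KO-2, a smaller difference.

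**Figure D4:**
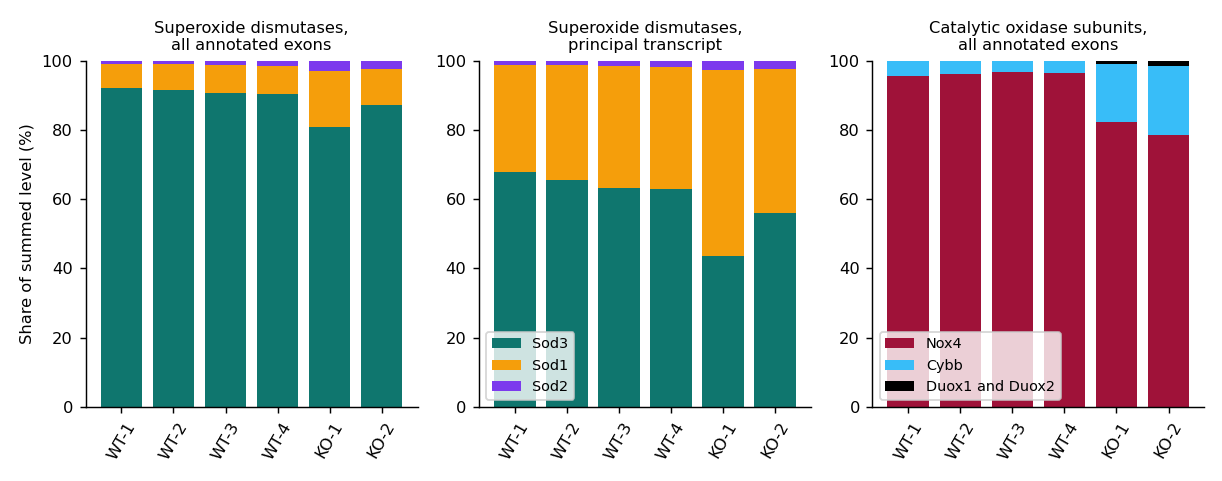
Stacked bars give each gene's share (%) of the summed level in a library, for the 3 dismutases by all annotated exons (left) and by the principal transcript (middle), and for the catalytic oxidase subunits (right). Sod3 took the smallest share in KO-1 by both lengths (81.0% and 43.5%), and Cybb took 16.9% and 20.004% of the oxidase total in KO-1 and KO-2.

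Other redox genes were listed by known function, not for how they moved. Of 77 such genes, 5 had 0 counts in every library and 70 were tested, of which 6 rose and 2 fell by the DESeq2 adjusted p-value. That is 11.4%, close to the 10.4% of all genes, and their median log2 fold change was 0.12, against 0.01 for all genes. Gpx3, the secreted glutathione peroxidase, had the largest change among those that passed (log2 fold change 2.02, SE 0.28, DESeq2 adjusted p-value 1.27e-10), from 2361 ± 358.0 (SD, n = 4) to 5973 in KO-1 and 13194 in KO-2, and it passed in all 12 alternative fits. G6pdx, the first enzyme of the pentose phosphate pathway and a source of NADPH, rose by 1.02 (DESeq2 adjusted p-value 0.00148). Its log2 fold change was 0.46 without KO-2 and 1.43 without KO-1. The call on G6pdx was kept in 10 of the 12 alternative fits and lost in 2, the replicate block among them. Both Gpx3 and G6pdx were higher in KO-2, where brown adipocyte markers stood at 18.4 times the WT mean and white at 9.34 times. The part of fat in these values was not tested.

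Among partner subunits, 1 of 11 tested genes passed. Rac2, the GTPase of the phagocyte oxidase, rose by 1.01 (DESeq2 adjusted p-value 0.0210), from 104.1 ± 9.43 (SD, n = 4) to 157.1 in KO-1 and 264.3 in KO-2, a call lost without KO-2, WT-1 or WT-2. Ncf1 and Ncf4, which encode cytosolic subunits of the phagocyte oxidase and were named after their values were seen, had log2 fold changes of 0.74 and 0.46 and did not pass. The organizer genes Sh3pxd2a, the partner with the most counts, and Noxo1 were at -0.32 and -0.43 and did not pass. Noxo1 overlaps Tbl3 on the opposite strand.

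The other genes that passed were Me1 (log2 fold change 0.80), Maob (0.56) and Pex11a (1.92), which rose, and Mafg (-0.86) and Aox1 (-0.55), which fell. Me1, another source of NADPH, had the weakest call (DESeq2 adjusted p-value 0.0473). It was at 2310 in KO-1, inside the WT range of 2114 to 2382, and 5532 in KO-2. Pex11a had a log2 fold change of 1.35 without KO-2 and 2.34 without KO-1. Adipocyte markers were likewise highest in KO-2, and the part of fat in Me1 and Pex11a was not tested. Calls on Me1, Maob and Pex11a were lost without KO-2, those on Mafg and Aox1 without KO-1, those on Me1, Maob and Pex11a without WT-1, those on Me1 and Maob without WT-2, and that on Me1 also without WT-3 or WT-4. Of the 6 peroxiredoxins, 11 thioredoxin and glutaredoxin genes, 5 tested genes of glutathione synthesis and reduction, and 4 copper delivery genes, 0 passed in DESeq2, with 1 (Txn1) at an unadjusted p under 0.05 and 0 past the adjusted p-value in edgeR. Genes with the most counts in their families had log2 fold changes of 0.46 (Prdx1), 0.11 (Txnip), 0.30 (Gclc), -0.26 (Sqstm1), -0.34 (Atox1) and -0.20 (Pcyox1), and 0 of these 6 passed. G6pdx, Me1, Pex11a and Mafg overlap other annotated genes, so their counts are less certain. A pair of values stood apart between the KO libraries and are named for that reason. Gpx1 was at 14175 normalized counts in KO-2, 1491 in KO-1 and 1079 to 2065 in WT, and Rac1 at 2183 in KO-2, 8759 in KO-1 and 6987 to 7980 in WT.

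**Figure D5:**
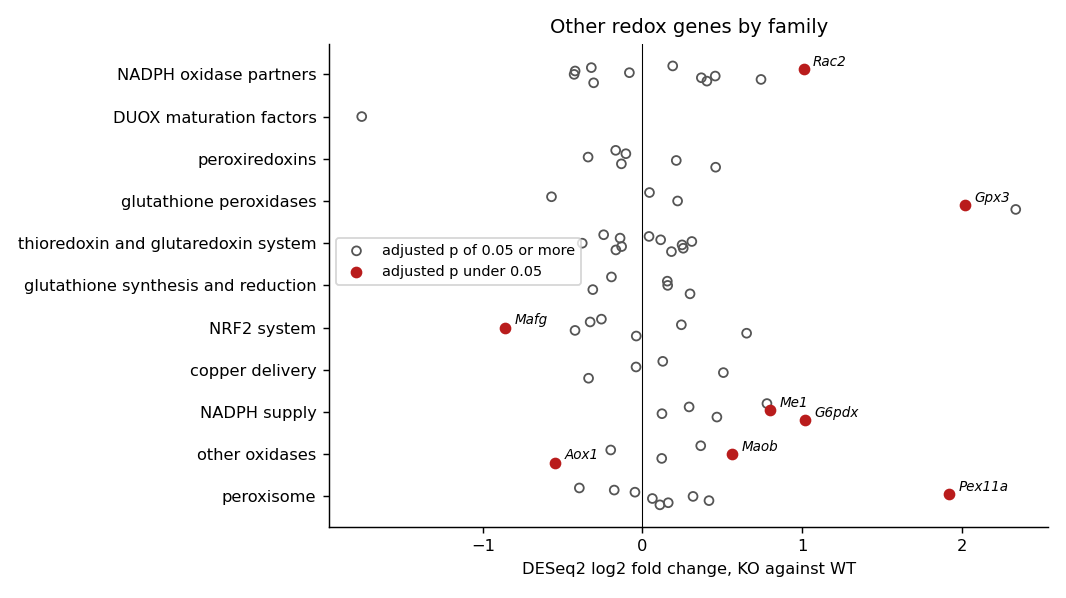
Each point is 1 tested gene of the 77 other redox genes, placed by its DESeq2 log2 fold change (KO against WT) and grouped by family; filled points passed the adjusted p-value. The 8 that passed are named and are spread over 6 of the 11 families, with Gpx3 at 2.02 and Mafg at -0.86.

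The genes nearest in profile to each member were found among 11441 genes with a mean normalized count of at least 100, by the root mean square difference of their log2 values over the 6 libraries. For Nox4 these were Kcnq3 (0.13), Bmp3 (0.13) and Lonrf1 (0.14), all lower in KO. For Cybb they were Hpgd (0.13), Dclk1 (0.13) and F13a1 (0.15), and for Cat they were Uqcrb (0.08), Slc25a20 (0.10) and Dynlrb1 (0.12). For Sod3 they included Igfbp7 (0.08), and for Sod2 Ddx59, Irf2 and Tent2, each within 0.05.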

How the data were processed

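The authors trimmed reads with Trim Galore, used HISAT2 to align them to GRCm38, and quantified GENCODE M15 genes in StringTie. The deposited table holds estimated counts, whole numbers not scaled for depth, and how coverage became whole numbers is not given in the sources used here. The deposited columns carry codes in place of titles. The code with 4 columns was taken as WT and that with 2 as KO, with the replicate number from the end of the code.

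Symbols, positions and lengths came from GENCODE M21 on GRCm38 by unversioned identifier (52489 of 52636 matched). DESeq2 1.42.0 in R 4.3.3 compared 2 KO with 4 WT libraries over all genes (Wald test, group as the only term). A gene passed at a Benjamini-Hochberg adjusted p below 0.05, and where said also above 2-fold. The fit was tested on simulated data. Counts were normalized by DESeq2 size factors, and log2 values of single libraries used a pseudocount of 0.5. Alternatives were edgeR 4.0.16 (quasi-likelihood, with and without a filter), TMM or total count scaling, a mean count of at least 10, the replicate number as a block, and each library left out. Principal transcript lengths were added after seeing the data. Intervals on folds are 95%, and the floor of 3 counts covers counting error only. The study gives n as 4 WT and 2 KO mice, the same as the numbers of libraries.

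The members and lists were chosen with earlier results of these data known. Named were all members, the redox genes that passed with the family member with the most counts, and nearest profiles. Other named genes were chosen after their values were seen. A few genes that this rule names are not reported here.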

Additional observations from a re-analysis of the deposited data

Results flagged for a closer look

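Of 29 values checked over the 4 WT libraries, 1 had a library far from the others, where chance alone gives about 1 in 20. The normalized counts of Aox1 lay between 1347 and 1378 in WT-2 to WT-4 but reached 1533 in WT-1, so that the gap of WT-1 to its neighbor took up 0.836 of the WT range. The KO libraries (906.7 and 1024) lay below all 4. The KO group, with 2 libraries, is too small for this check.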

How the results depend on the processing

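The alternatives refit the values on which the members were chosen, so they describe the members and are no support for them. Across 12 alternative fits the log2 fold change ran from -1.52 to -1.18 for Nox4 and from 1.11 to 1.26 for Cybb. Duox2 passed both thresholds in 9, had no adjusted p-value without KO-1 or without KO-2, and did not pass with the replicate block. Sod3 (-1.20 to -0.35) and Cat (0.19 to 1.34) passed the adjusted p-value in 5 of 12 each, and Sod2 in 1, the fit without KO-1. No member changed sign. The count of members past both thresholds was 3 in every fit that left out a library and 2 with the replicate block, but the genes differed, with Cat in place of Duox2 without KO-1 and Sod3 in its place without KO-2. The count over all genes, 962, was 633 in edgeR with a filter and 561 with the replicate block, and ran from 636 to 1284 with a library left out. The 8 other redox genes that passed became 2 in edgeR with or without a filter and 2 with the replicate block, and ran from 4 to 20 with a library left out, the extremes being without WT-1 and without KO-1. Same-numbered libraries share only a number, as the labels state no common litter or batch and 2 pairs are too few to tell (correlations of deviations -0.09 and 0.01). With 2 KO libraries, a log2 fold change has a standard error of about 0.2 even in well-counted genes such as Nox4 (0.21). Duox1 and Duox2 rest on at most 41 counts in a library.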
